A study of Homo sapiens with 32 samples.

Results

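A set of 10 genes known as direct targets of the transcription co-activators YAP and TAZ and of their DNA-binding partners, the TEAD factors, were followed across 16 groups of lung cancer cells. They were CCN1, CCN2, ANKRD1, AMOTL2, AJUBA, AXL, FSTL1, LATS2, TEAD1 and PTPN14. All 10 were among the 19775 genes with a probe set on the array, each was read from its brightest probe set, and 9 of them passed a filter on low values (log2 intensity over 5 in at least 3 arrays) that kept 14695 genes. ANKRD1 did not: it stayed under log2 5 on all 32 arrays. CCN1 and CCN2 are also known as CYR61 and CTGF. The genes were picked by name as pathway targets, not by a measured threshold, but with earlier results of these data known.

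Both lines of the study, H1299 and A549, are established human lung cancer lines grown in RPMI with serum, and both are known to lack functional SMARCA4. SMARCA2 and SMARCA4 are the alternative ATPases of the SWI/SNF chromatin remodelling complexes. Every line stably carried 1 of 2 short hairpin RNAs, either S2sh7, directed at the ATPase domain of SMARCA2, or the luciferase control shLuc. Every line also expressed 1 of 4 cDNAs: the GFP control, or a SWI/SNF ATPase that was wild type (WT), mutated in its bromodomain (BRD) or catalytically inactive (ATPdead). H1299 received the SMARCA2 versions and A549 the SMARCA4 versions. The 8 H1299 groups therefore were shLuc or S2sh7 with GFP, WT SMARCA2, BRD SMARCA2 or ATPdead SMARCA2, with 3 arrays each, and the 8 A549 groups were the same hairpins with GFP, WT SMARCA4, BRD SMARCA4 or ATPdead SMARCA4, with 1 array each. The labels call the H1299 arrays biological replicates without saying whether infections or cultures were separate. The p-values therefore cover only the spread among these arrays, which may be technical. The effect of a hairpin or a cDNA cannot be told apart from a difference between the cell lines made to carry it. The cDNAs differ between H1299 and A549 in the protein they encode. Array median intensities of the lines lay apart, at 26.4 to 27.3 in H1299 and 40.1 to 41.2 in A549. The sample labels name no batch, and the lines are treated here as 2 batches. Line, batch and the identity of the cDNA therefore cannot be told apart.

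The Hippo pathway is a kinase cascade in which MST kinases activate LATS1 and LATS2. LATS kinases phosphorylate YAP and TAZ, which keeps both out of the nucleus; unphosphorylated YAP and TAZ enter it and bind TEAD factors at enhancers and promoters, often beside AP-1 factors. Several targets feed back on the cascade: LATS2 is a kinase that inhibits YAP, AMOTL2 and PTPN14 bind YAP and hold it in the cytoplasm, and AJUBA is an adaptor that restrains LATS kinases. Others act outside the cell or at its surface: CCN1, CCN2 and FSTL1 are secreted proteins, and AXL is a receptor tyrosine kinase known in lung cancer for its part in resistance to targeted drugs. TEAD1 is itself one of the DNA-binding partners, and ANKRD1 is a nuclear ankyrin-repeat protein long used as a readout of YAP.

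TEAD factors bind the letters GGAATG. Promoter windows of 300 bases, from 250 before to 50 after an annotated start, were taken from RefSeq on GRCh38.p14. The set of windows used here covered 8 of the 10 genes (11 windows, since AJUBA, AMOTL2 and AXL had more than 1). It held no entry for CCN1 or TEAD1, which says nothing of their annotation in RefSeq. GGAATG, read on either strand, was present in 7 of these 11 windows, in 7 of the 8 genes, against 14.03% of all 35116 windows in the table. A window of CCN2 held 3 copies, a number that 0.128% of all windows reached. The windows of CCN2, LATS2 and PTPN14 and a window of AMOTL2 are printed because the A549 results turn on these genes; capitals mark GGAATG, or CATTCC where the match lies on the other strand, and each window reads 5′ to 3′ in the direction of the gene.
CCN2, chr6:131951323-131951622, minus strand: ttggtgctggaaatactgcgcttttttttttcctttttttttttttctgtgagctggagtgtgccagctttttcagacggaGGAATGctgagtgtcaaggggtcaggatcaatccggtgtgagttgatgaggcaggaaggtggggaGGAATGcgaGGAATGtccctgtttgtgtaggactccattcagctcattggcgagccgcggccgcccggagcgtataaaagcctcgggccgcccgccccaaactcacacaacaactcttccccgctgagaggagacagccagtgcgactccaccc
LATS2, chr13:21061537-21061836, minus strand: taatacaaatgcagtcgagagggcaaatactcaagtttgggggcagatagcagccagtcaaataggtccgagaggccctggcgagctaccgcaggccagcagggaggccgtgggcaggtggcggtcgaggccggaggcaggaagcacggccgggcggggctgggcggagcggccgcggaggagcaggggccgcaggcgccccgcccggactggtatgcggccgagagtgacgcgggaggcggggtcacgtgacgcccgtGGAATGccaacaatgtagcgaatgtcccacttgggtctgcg
PTPN14, chr1:214551553-214551852, minus strand: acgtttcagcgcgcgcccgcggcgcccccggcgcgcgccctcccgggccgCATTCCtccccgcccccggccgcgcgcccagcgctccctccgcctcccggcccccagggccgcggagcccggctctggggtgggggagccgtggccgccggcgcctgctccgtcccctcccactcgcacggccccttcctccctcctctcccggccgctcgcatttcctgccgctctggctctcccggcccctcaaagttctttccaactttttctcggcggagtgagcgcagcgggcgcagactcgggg
AMOTL2, chr3:134374398-134374697, minus strand: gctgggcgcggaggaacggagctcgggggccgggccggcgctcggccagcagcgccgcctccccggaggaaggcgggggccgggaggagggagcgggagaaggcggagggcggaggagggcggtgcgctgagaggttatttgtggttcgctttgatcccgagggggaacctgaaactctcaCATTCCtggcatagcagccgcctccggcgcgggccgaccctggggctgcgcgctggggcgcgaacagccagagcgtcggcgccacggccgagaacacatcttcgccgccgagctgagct
Counted from the first base of its window, CCN2 had the motif at bases 82 to 87, 147 to 152 and 156 to 161. LATS2 had it at 260 to 265, just after the start site, PTPN14 at 51 to 56 and AMOTL2 at 182 to 187, the last pair on the opposite strand. The ANKRD1 window held 2 copies, at bases 31 to 36 and 123 to 128, and the AP-1 motif TGANTCA at bases 56 to 62; it was the only window of the 11 with that motif, which 7.709% of all windows held. AJUBA and AXL had GGAATG only in the second of their windows, and FSTL1 had none in its single window. The CArG box of SRF, found in 1.293% of all windows, was in none of the 11. No match overlapped another in the windows, and a match in a sequence is a description of its letters only.

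Replicate arrays of H1299 correlated at 0.9976 to 0.9988, and the 3′ minus 5′ log2 difference of the ACTB control probe sets had a median of 0.247 (shLuc) and 0.233 (S2sh7) in H1299, and 0.213 and 0.181 in A549, with ranges that overlapped in both lines. SMARCA2 RNA, the target of S2sh7, fell by 1.30 on the log2 scale in H1299 with GFP at its brightest probe set, and the A549 GFP pair differed by -3.18. At the brightest SMARCA4 probe set, H1299 with GFP read 7.38 with shLuc and 6.78 with S2sh7. The next brightest read 6.96 and 6.67, 6.74 and 6.36, and 6.64 and 5.97, while a dimmer probe set read 5.82 with both. The A549 GFP pair differed by 0.21 at the brightest. S2sh7 was the only hairpin against SMARCA2, so effects off its target cannot be told apart from those of SMARCA2 loss. The keratins KRT8 and KRT18 were bright in both lines, CDH1 and EPCAM were under log2 5 on every H1299 array, and the leukocyte gene PTPRC, the endothelial gene CDH5 and the fibroblast gene LUM were under log2 5 on all 32 arrays. Other markers of those lists were above it, with medians in H1299 and A549 of 5.22 and 6.04 for CD3E, 5.47 and 6.37 for PECAM1, 6.88 and 8.37 for COL1A1 and 5.15 and 5.80 for DCN. In A549 alone CD14 ran from 5.08 to 6.98, VWF had a median of 5.26 and PDGFRB of 5.21, and COL3A1 ran from 3.63 to 7.47. CDKN2A, whose locus is deleted in A549, had a median of 10.7 in H1299 and 5.76 in A549. The summed intensity of 6 epithelial markers was lower with the SMARCA2 hairpin: H1299 arrays ran from 9334 to 10031 under shLuc and from 6412 to 7626 under S2sh7, and A549 arrays from 28061 to 31963 and from 19503 to 20147. Of the 6, the keratins KRT7, KRT8 and KRT18 fell in H1299 with GFP, beside 16.1% of all tested genes lower at a limma adjusted p under 0.05. In A549, 4 of the 6 had a higher hairpin effect with ATPase-competent SMARCA4, beside 12% of all tested genes. The part of these markers in the results was not tested. The summed intensities of 3 leukocyte, 3 endothelial and 5 fibroblast markers overlapped between the hairpins in H1299; in A549 those of the leukocyte markers were lower with S2sh7 (110 to 159 against 170 to 210) and those of the fibroblast markers higher (495 to 614 against 440 to 478), whose part was not tested either.

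In H1299 with GFP, the SMARCA2 hairpin lowered 7 of the 9 tested target genes and raised 1, CCN2, while PTPN14 was not called. FSTL1, AJUBA and AXL had the largest falls, to 53.9%, 58.3% and 62.9% of the control. A gene was called at a limma adjusted p under 0.05 over all 14695 genes, and 29.7% of all genes were called in this comparison (16.1% lower, 13.6% higher), so 8 calls among 9 genes are read against that share. The median log2 difference of the 9 genes was -0.24, beside 0.01 over all tested genes. The 3 arrays of each hairpin did not overlap for 8 of the 9 genes, as was so for 42.1% of all genes. In bulk RNA, fewer cells with a transcript and less of it per cell cannot be told apart.

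Among the secreted proteins, FSTL1, a follistatin-like glycoprotein, read log2 8.68, 8.65 and 8.63 on the shLuc arrays and 7.73, 7.72 and 7.83 on the S2sh7 arrays. All 3 hairpin arrays lay below all 3 controls, by far more than either group's spread. The log2 difference was -0.89 (SE 0.051, limma adjusted p = 6.73e-11). CCN1, a matricellular ligand of integrins, read 12.00, 11.97 and 11.89 with shLuc and 11.75, 11.69 and 11.69 with S2sh7. The groups again did not overlap, but the gap was much smaller than that of FSTL1 (-0.24, SE 0.054, adjusted p = 0.00192). CCN2, its close relative, went the other way: 10.64, 10.56 and 10.51 with shLuc and 10.84, 10.79 and 10.76 with S2sh7. Every hairpin array stood above every control (0.23, SE 0.052, adjusted p = 0.00214).

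The receptor AXL read 12.75, 12.77 and 12.75 with shLuc and 12.08, 12.08 and 12.10 with S2sh7. Arrays within a hairpin were nearly identical, so the fall of 0.67 on the log2 scale (SE 0.025) had the smallest adjusted p of the 9 genes, 1.25e-13. AJUBA, the LIM-domain adaptor, read 10.11, 10.18 and 10.02 against 9.30, 9.30 and 9.36. Its fall of 0.78 was found by all 3 of its tested probe sets, which gave -0.81, -0.78 and -0.55. AMOTL2, a tight-junction protein of the angiomotin family, read 10.23, 10.19 and 10.16 against 9.77, 9.75 and 9.75 (-0.44, SE 0.033, adjusted p = 5.47e-09). For these 3 genes the hairpin arrays all lay under the controls with a wide gap.

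The remaining tested genes, a kinase, a phosphatase and a transcription factor, moved little. LATS2 read 9.27, 9.26 and 9.22 with shLuc and 9.04, 9.07 and 9.11 with S2sh7 (-0.17, SE 0.035, adjusted p = 0.000696; -0.09 and 0.449 at its dimmest tested probe set). TEAD1 read 9.49, 9.49 and 9.52 against 9.35, 9.44 and 9.36 (-0.12, SE 0.039, adjusted p = 0.0258). The groups did not overlap for either gene, but the TEAD1 call was lost when arrays were centred on their medians (adjusted p = 0.0848) and when any of 4 single arrays was left out. Of its dimmer probe sets, 1 gave -0.44 (adjusted p = 0.00803) and the other -0.29 (adjusted p = 0.114), and the brightest was not called from the spread of the 6 arrays alone (0.0634). PTPN14, a phosphatase, read 9.29, 9.34 and 9.39 against 9.34, 9.23 and 9.29, overlapping ranges with a difference of -0.06 (95% interval -0.16 to 0.04, adjusted p = 0.414).

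ANKRD1 lay near background throughout. It read 4.12, 4.13 and 3.96 with shLuc and GFP and 3.13, 3.23 and 3.20 with S2sh7 and GFP, and all 24 H1299 arrays were between 2.83 and 4.71. The hairpin arrays were below the control arrays. With no filter on low values the fit over 19775 genes gave -0.88 (adjusted p = 7.29e-06) with GFP, and -1.30, -1.01 and -0.94 with WT, BRD and ATPdead SMARCA2. At this brightness a difference on the log2 scale understates or distorts the change in RNA, so its size is not read further.

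**Figure D1:**
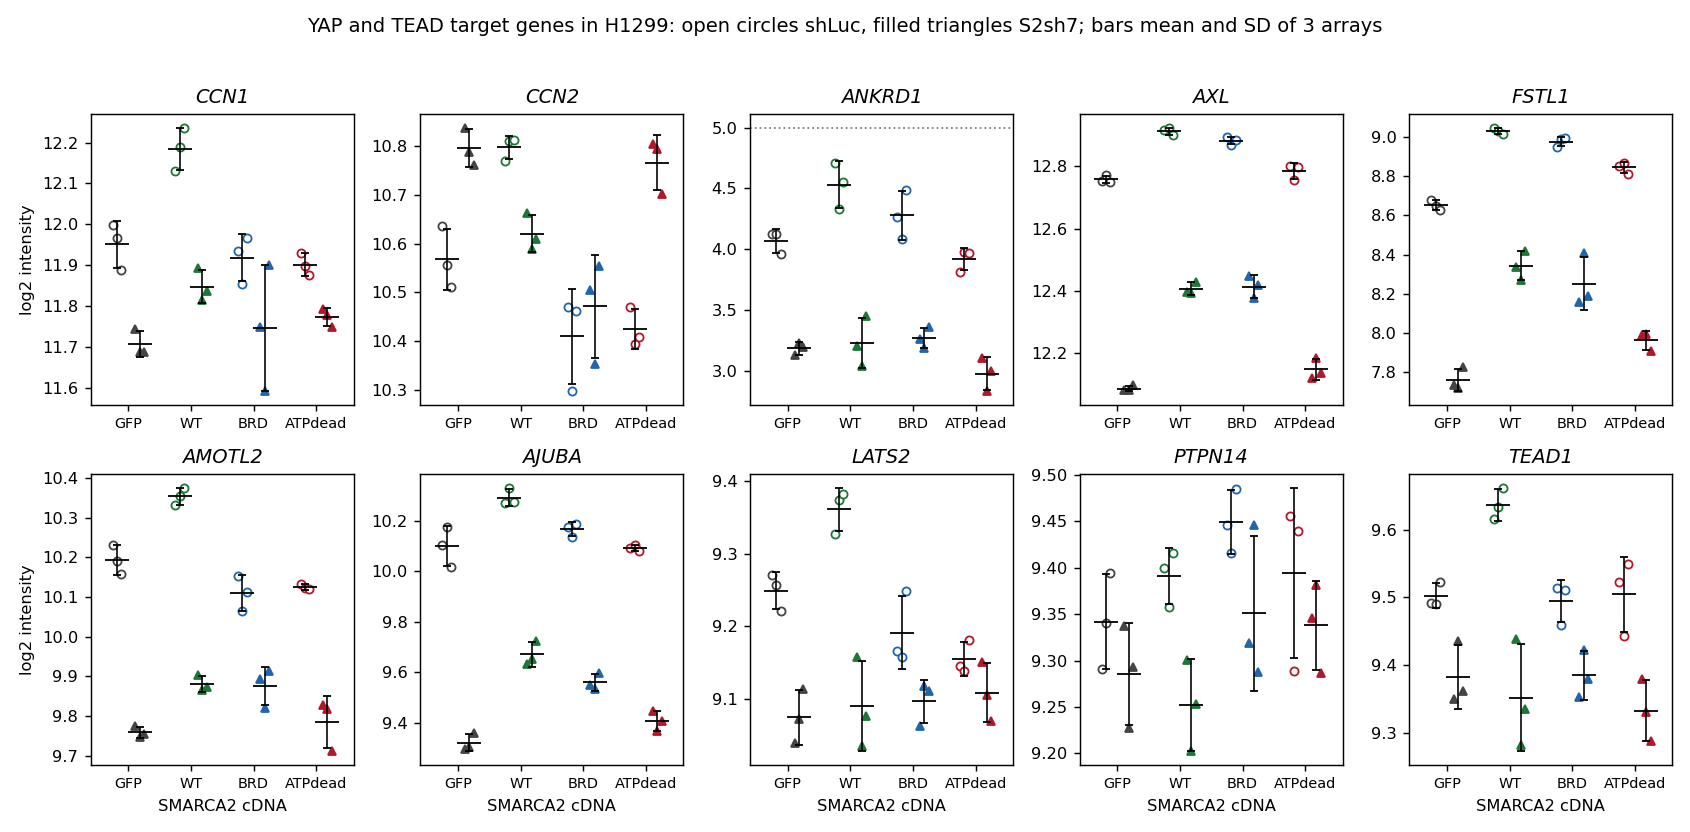
Log2 intensity of the 10 genes on each of the 24 H1299 arrays, by SMARCA2 cDNA, with open circles for shLuc, filled triangles for S2sh7 and bars for the mean and SD of 3 arrays; each panel has its own axis, and the dotted line at 5 in the ANKRD1 panel is the filter. FSTL1, AXL, AJUBA and AMOTL2 were lower with S2sh7 for every cDNA, whereas CCN2 was higher with GFP (10.80 against 10.57) and ATPdead SMARCA2 (10.77 against 10.42).

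The same hairpin was compared within the lines carrying a SMARCA2 cDNA, which asks whether the added SMARCA2 changes its effect. The mean intensity of a SMARCA2 probe set that read the cDNAs was itself lower with S2sh7 in each H1299 line. It went from 121.3 to 76.7 with WT, 107.5 to 67.1 with BRD, 109.1 to 56.7 with ATPdead and 42.6 to 25.7 with GFP. The part of this in the hairpin comparisons was not tested. FSTL1, AXL, AJUBA, AMOTL2 and TEAD1 fell with all 4 cDNAs, and 1001 genes, 6.81% of those tested, did the same. With WT SMARCA2 all 9 genes fell (26.5% of all genes called, 11.6% lower and 14.9% higher). With BRD SMARCA2 6 fell and none rose (23.7% called, 12.7% lower). With ATPdead SMARCA2 5 fell and CCN2 rose (28.4% called, 11.9% lower). These 4 comparisons do not share arrays with each other. The PTPN14 call with WT (-0.14, adjusted p = 0.0383) was lost without shLuc WT replicate 1 or 3 or S2sh7 WT replicate 2 or 3 (adjusted p = 0.0834 to 0.149), with no filter (0.0586) and at another probe set (0.0672).

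FSTL1 fell by 0.69, 0.72 and 0.88 with WT, BRD and ATPdead SMARCA2, beside 0.89 with GFP. AXL fell by 0.50, 0.47 and 0.64, beside 0.67. AJUBA fell by 0.62, 0.61 and 0.69, beside 0.78. In each of these 3 genes the falls with WT and BRD were smaller than those with ATPdead and GFP. AMOTL2 fell by 0.47, 0.23 and 0.34, beside 0.44, an order of its own. TEAD1 fell by 0.29, 0.11 and 0.17, of which the value with BRD was called by a narrow margin (adjusted p = 0.0469, and up to 0.151 with an array left out). CCN1 fell with WT (-0.34) and BRD (-0.17) and gave -0.13 with ATPdead (adjusted p = 0.0905); the BRD call was lost without S2sh7 BRD replicate 1 or 2 or shLuc BRD replicate 1 or 3 (adjusted p = 0.0606 to 0.18) and when arrays were centred on their medians (0.0625).

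CCN2 showed the widest range of hairpin effects in H1299. It read 10.77, 10.81 and 10.81 with shLuc and WT SMARCA2 and 10.66, 10.59 and 10.61 with S2sh7 and WT, a fall of 0.18 (adjusted p = 0.0152). With ATPdead SMARCA2 it read 10.47, 10.39 and 10.41 with shLuc and 10.80, 10.79 and 10.70 with S2sh7, a rise of 0.34 (adjusted p = 4.55e-05). The arrays of the hairpins were apart in both lines but in opposite order. With BRD SMARCA2 they overlapped, at 10.47, 10.30 and 10.46 against 10.51, 10.35 and 10.55 (0.06, adjusted p = 0.434). The CCN2 call with WT was lost without S2sh7 WT replicate 2 (adjusted p = 0.0584).

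Tested directly, the hairpin effect with WT SMARCA2 differed from that with GFP for CCN2 (difference -0.41, SE 0.073, adjusted p = 0.00444) and for AXL (0.17, SE 0.035, adjusted p = 0.0166), where 2.28% of all genes were called, 1.82% higher and 0.456% lower. With BRD SMARCA2 only AXL was called among the 9 genes (0.20, SE 0.035, adjusted p = 0.00752), beside 0.558% of all genes (0.388% higher, 0.17% lower). With ATPdead SMARCA2 none of the 9 was called in limma, beside 0.0612% of all genes (0.0476% higher, 0.0136% lower), and the differences ran from -0.05 for TEAD1 to 0.13 for LATS2. Centring each array on its median took both AXL calls away (adjusted p = 0.194 with WT and 0.0668 with BRD), and the second AXL probe set gave no call either (adjusted p = 0.241 and 0.351). The differences for FSTL1 (0.20 with WT, 0.17 with BRD) and AJUBA (0.16 and 0.17) were not called. Nor were those for AMOTL2 with BRD (0.20) and TEAD1 with WT (-0.17), which gained a call under 4 and 3 other settings. AJUBA gained one under 1 setting with each cDNA.

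Within S2sh7 lines, WT SMARCA2 gave higher levels than GFP for FSTL1, AXL, AJUBA and AMOTL2 (5.06% of all genes called, 3.35% higher and 1.7% lower). FSTL1 read 8.34, 8.27 and 8.42 with WT against 7.73, 7.72 and 7.83 with GFP, which was 150% of the GFP level (0.58, adjusted p = 4.18e-07). AXL read 12.40, 12.39 and 12.43 against 12.08, 12.08 and 12.10 (0.32, adjusted p = 9.38e-08). AJUBA read 9.63, 9.65 and 9.73 against 9.30, 9.30 and 9.36 (0.35, adjusted p = 4.63e-06). The arrays with WT lay above all arrays with GFP for the 3 genes, and below every shLuc GFP array. AMOTL2 was higher by 0.12 with WT and by 0.12 with BRD. The WT call was lost whichever single array compared was left out (adjusted p up to 0.121). The BRD call was lost when any of several was left out (up to 0.163).

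BRD SMARCA2 gave a like picture, with FSTL1 (0.49), AXL (0.33), AJUBA (0.24) and AMOTL2 higher than with GFP under S2sh7 and CCN2 lower by 0.32 (5.38% of all genes called, 3.32% higher and 2.06% lower). With ATPdead SMARCA2 none of the 9 genes was called against GFP in limma (0.803% of all genes called). FSTL1 came closest, reading 7.99, 7.99 and 7.91 (0.20, adjusted p = 0.0715; 0.0481 and 0.00811 under a stricter filter and a robust fit). The largest difference among the others was 0.08 for AJUBA (95% interval 0.008 to 0.16).

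The ATPase dead form was also set against the wild type directly, still under S2sh7. FSTL1, AXL and AJUBA were lower with ATPdead than with WT, by 0.38, 0.26 and 0.27 on the log2 scale (adjusted p = 0.00017, 4.18e-06 and 0.000265), beside 3.02% of all genes called, 1.61% higher and 1.41% lower. When the spread was estimated from the 6 arrays alone all 3 calls were lost (adjusted p = 0.0666, 0.0729 and 0.0932). The bromodomain mutant was not told apart from the wild type for any of the 9 genes in limma, beside 0.0612% of all genes called, and the differences ran from -0.15 for CCN2 to 0.10 for PTPN14. Beside this, the SMARCA2 probe set that differed most with the cDNAs had a mean intensity under S2sh7 of 76.7 with WT, 67.1 with BRD, 56.7 with ATPdead and 25.7 with GFP. Another read 31.8, 28.8, 31.2 and 20.2 in the same order, so the ATPdead RNA read below the other forms at the former and not at the latter. The part of the cDNA level in these differences was not tested.

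Without the SMARCA2 hairpin, WT SMARCA2 raised 6 of the 9 genes over GFP: FSTL1 (0.38), CCN1 (0.23), CCN2 (0.23), AJUBA (0.19), AMOTL2 (0.16) and AXL (0.15), beside 2.74% of all genes called, 0.925% higher and 1.82% lower. The median difference of the 9 genes was 0.16, beside -0.01 over all tested genes. FSTL1 read 9.05, 9.03 and 9.02 with WT against 8.68, 8.65 and 8.63 with GFP, the clearest of these separations. CCN1 read 12.13, 12.19 and 12.23 with WT, above each of its GFP arrays. The number of calls depended on single arrays: 2 were left without shLuc GFP replicate 3, 2 without shLuc WT replicate 2 and 3 without shLuc WT replicate 3, and FSTL1 and AXL stayed called in all of these. BRD SMARCA2 raised FSTL1 (0.32) and AXL (0.12), beside 1.37% of all genes (0.864% higher, 0.504% lower), and ATPdead SMARCA2 raised none in limma, beside 0.122% (0.034% higher, 0.0885% lower). The AXL call with BRD was lost without any of 4 single arrays (adjusted p up to 0.0757).

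Ordered by level, the 8 H1299 groups fell into 2 blocks for most of the genes. For FSTL1 the means were 9.03 (SD 0.016), 8.98 (SD 0.025), 8.84 (SD 0.028) and 8.65 (SD 0.025) with shLuc and WT, BRD, ATPdead and GFP, then 8.34 (SD 0.074), 8.25 (SD 0.135), 7.96 (SD 0.048) and 7.76 (SD 0.058) with S2sh7 in the same order of cDNAs, n = 3 each. Only WT and BRD under S2sh7 overlapped among neighbours. AXL had the same blocks, with shLuc means of 12.91, 12.88, 12.78 and 12.76 for WT, BRD, ATPdead and GFP and S2sh7 means of 12.41, 12.41, 12.15 and 12.09; ATPdead and GFP overlapped under shLuc, and WT and BRD under S2sh7. AJUBA ran from 10.29 with shLuc and WT through 10.17, 10.10 and 10.09 with BRD, GFP and ATPdead, the last 3 overlapping, to 9.67, 9.56, 9.41 and 9.32 with S2sh7 and WT, BRD, ATPdead and GFP, none of which overlapped. In all 3 genes the shLuc WT line was the highest and the S2sh7 GFP line the lowest.

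AMOTL2 went from 10.35 with shLuc and WT to 9.76 with S2sh7 and GFP, with a gap between the hairpins and overlapping neighbours among the S2sh7 groups (9.88, 9.88, 9.78 and 9.76). TEAD1 was at 9.64 with shLuc and WT, at 9.49 to 9.50 in the other shLuc groups, which overlapped, and at 9.33 to 9.38 in the S2sh7 groups, which overlapped as well. LATS2 was at 9.36 with shLuc and WT, and its other 7 groups, from 9.25 to 9.07, formed a chain in which each overlapped the next. CCN1 had the shLuc WT group apart at 12.18. Its other 7 groups, from 11.95 to 11.71, did not separate, since the S2sh7 BRD arrays ran from 11.59 to 11.90 and overlapped each of the others. PTPN14 had no gap anywhere between 9.45 and 9.25. PTPN14 also mixed the hairpins, with S2sh7 and BRD (9.35) just above shLuc and GFP (9.34). CCN2 mixed them most: shLuc with WT (10.80), S2sh7 with GFP (10.80) and S2sh7 with ATPdead (10.77) overlapped at the top, and the other 5 groups, from 10.62 down to 10.41, formed a chain with shLuc BRD at its end.

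Across the 24 H1299 arrays, 30 of the 36 pairs of the 9 genes correlated above 0, the highest being AXL with AJUBA (r = 0.985), FSTL1 with AXL (0.98) and FSTL1 with AJUBA (0.972). These arrays form groups, so the values mostly restate the hairpin difference and carry no p. Within the 12 shLuc arrays 32 of 36 pairs were above 0 (median r = 0.669), and within the 12 S2sh7 arrays 23 of 36 (median r = 0.12). CCN2 correlated with the mean of the other 8 genes at 0.791 within shLuc and at -0.599 within S2sh7, so that the lines with the highest CCN2 were those with high levels of the other genes under shLuc and with low levels under S2sh7. AMOTL2 kept 0.81 and 0.80. PTPN14 gave 0.077 and -0.029, values near 0 in both.

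The genes outside the set whose profile was most like the mean of the 9 standardised profiles over the 24 H1299 arrays were SALL3 (r = 0.975), LINC01896 (0.97), PPIF (0.968), NABP1 (0.968) and PFKFB3 (0.967). The least like were TIMP1 (-0.962), WLS (-0.96) and CKLF (-0.956). Within the 12 shLuc arrays alone the first 5 kept r between 0.786 and 0.923, and within the 12 S2sh7 arrays between 0.538 and 0.839. PFKFB3 makes an activator of glycolysis, PPIF a mitochondrial cyclophilin, TIMP1 an inhibitor of matrix metalloproteinases and WLS the carrier of secreted Wnt proteins. Over the 8 group means, a different set led: SELENOI (0.995), PLCXD2 (0.994), GPR158 (0.99), CXCL3 (0.989) and RIPOR1 (0.989).

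In A549, the hairpin gave different results according to the SMARCA4 cDNA. In the lines with GFP or ATPdead SMARCA4, S2sh7 was accompanied by higher CCN1, CCN2, AMOTL2, LATS2, PTPN14 and TEAD1, and in the lines with WT or BRD SMARCA4 these genes changed far less. FSTL1 was lower with S2sh7 in all 4 pairs, and AXL, like LATS2 and PTPN14, was higher in all 4. The sign was the same in all 4 pairs for 50.1% of all genes. The change of the hairpin effect with an ATPase-competent SMARCA4 (WT and BRD against GFP and ATPdead) was called for 7 of 9 genes, all in the lower direction, beside 23.9% of all genes called, 11.9% lower. The median of the 9 genes was -0.94, beside -0.005 over all tested genes. A549 had 1 array per group, so this fit pools 2 lines as a class, and its error on 4 residual degrees of freedom is the difference between lines of a class, not between replicates.

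LATS2 went from log2 8.54 with shLuc to 10.16 with S2sh7 in the GFP line and from 8.59 to 10.06 in the ATPdead line. It went from 8.53 to 9.06 with WT and from 8.44 to 8.78 with BRD. The 4 shLuc arrays lay close together, and with S2sh7 the GFP and ATPdead arrays stood well above the WT and BRD arrays (change of the effect -1.11, SE 0.133, limma adjusted p = 0.000998). Another probe set gave -0.95, and the dimmest tested did not show it (-0.08, adjusted p = 0.64). PTPN14 had the same form: 8.26 to 9.67 with GFP and 8.24 to 9.73 with ATPdead, against 8.27 to 8.60 with WT and 8.23 to 8.26 with BRD. Its 4 probe sets all gave the call, from -1.03 to -1.55 (-1.27 at the brightest, adjusted p = 0.000839).

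CCN2 went from 10.17 to 11.26 with GFP and from 9.83 to 11.06 with ATPdead SMARCA4, and from 10.03 to 9.97 with WT and from 10.26 to 9.72 with BRD. The pairs thus differed in direction as well as in size, and the change of the effect was the largest of the 9 genes (-1.46, SE 0.200, adjusted p = 0.0018). CCN1 followed it, from 10.53 to 11.27 and 10.33 to 11.18 with GFP and ATPdead, and from 10.60 to 10.55 and 10.62 to 10.39 with WT and BRD (-0.94, adjusted p = 0.00147; -1.06 at its second probe set). AMOTL2 went from 9.16 to 9.88 and 9.00 to 9.87, against 9.15 to 9.06 and 9.13 to 8.91 (-0.95, adjusted p = 0.000835). TEAD1 went from 10.69 to 11.24 and 10.64 to 11.29, against 10.62 to 10.64 and 10.60 to 10.54 (-0.62, adjusted p = 0.00201). In all 4 genes the S2sh7 arrays with GFP and ATPdead stood above the other 6 arrays of the line.

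AJUBA differed by less: 10.13 to 10.37 with GFP and 10.02 to 10.26 with ATPdead, and 10.06 to 9.78 with WT and 10.00 to 9.68 with BRD (-0.54, adjusted p = 0.00749). The call was lost without the WT pair (adjusted p = 0.0558) or the BRD pair (0.0704). AXL was higher with S2sh7 in all 4 pairs, from 8.99 to 9.69 with GFP, 8.99 to 9.40 with ATPdead, 8.96 to 9.32 with WT and 9.05 to 9.17 with BRD; the change of the effect was -0.31 (95% interval -0.64 to 0.01, adjusted p = 0.148). FSTL1 went from 9.28 to 8.50, 9.42 to 8.88, 9.29 to 8.91 and 9.31 to 8.77 with GFP, ATPdead, WT and BRD (change of the effect 0.20, 95% interval -0.19 to 0.59, adjusted p = 0.451). ANKRD1, under log2 5 on every array, went from 3.65 to 4.74 with GFP and 3.56 to 4.44 with ATPdead, and from 3.79 to 4.07 and 3.64 to 3.55 with WT and BRD.

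**Figure D2:**
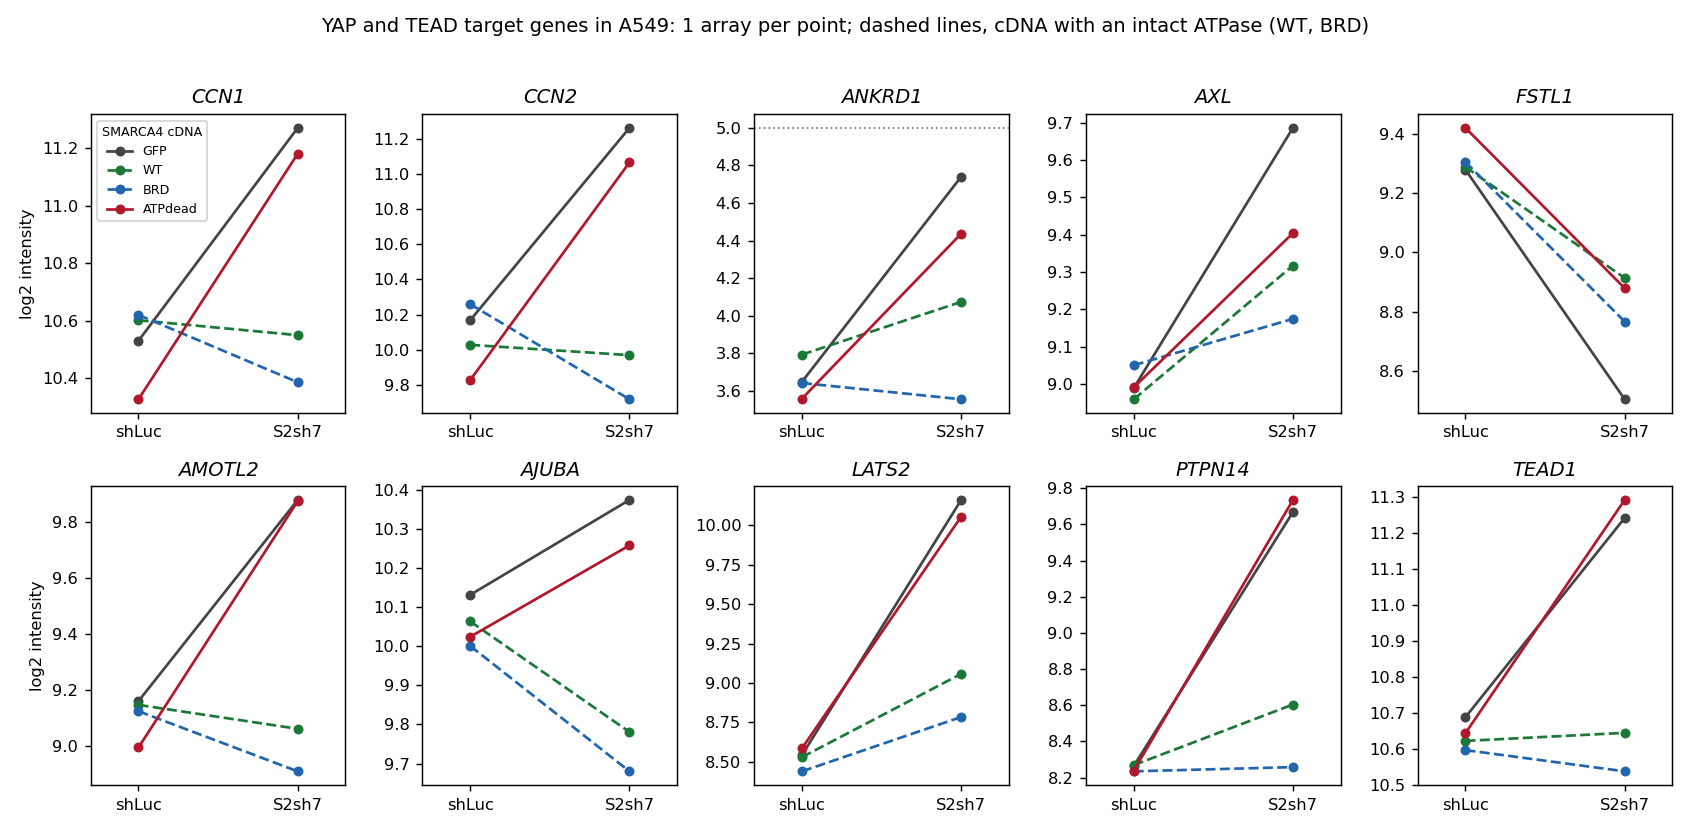
Log2 intensity of the 10 genes on the 8 A549 arrays, 1 array per point, with a line joining shLuc to S2sh7 for each SMARCA4 cDNA (solid for GFP and ATPdead, dashed for WT and BRD); each panel has its own axis, and the dotted line at 5 in the ANKRD1 panel is the filter. The solid lines climb for CCN1, CCN2, AMOTL2 and TEAD1, where the dashed lines fall or, for TEAD1 with WT, stay nearly level (10.62 to 10.64), while all 4 lines fall for FSTL1, from 9.28 to 8.50 with GFP.

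Averaged over the 4 cDNAs, the A549 hairpin effect was called for 3 of 9 genes in the additive fit: LATS2 (0.99, adjusted p = 0.0464) and AXL (0.40, adjusted p = 0.0474) higher and FSTL1 lower (-0.56, adjusted p = 0.0179), beside 21.1% of all genes. None of these calls held without the GFP pair or the ATPdead pair, and 1 held without the WT pair. At their dimmest tested probe sets AXL gave 0.15 and LATS2 0.11, neither called. The AXL call was also lost with no filter and with repeated quantile normalization, and the FSTL1 call with the mean of all probe sets. The fit that separates the classes called 8 genes, 7 higher and 1 lower, beside 50.1% of all genes. Its effect within each class was examined after the data had been seen. Without ATPase-competent SMARCA4, 8 genes were higher and FSTL1 lower, with 49.8% of all genes called and 27% higher. LATS2 reached 292% of its shLuc level, PTPN14 273% and CCN2 224%. At their dimmest tested probe sets AXL gave 0.13 and LATS2 0.15 in this class, neither called. The AJUBA call in this class was lost without any one of the 4 pairs (adjusted p = 0.0508 to 0.111) and at its dimmest tested probe set (0.671). With ATPase-competent SMARCA4, LATS2 was higher (0.44) and FSTL1 (-0.46) and AJUBA (-0.30) were lower, with 21.3% called; each of these 3 calls was lost without the WT pair or the BRD pair.

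Averaged over both hairpins, LATS2, PTPN14, CCN2, AMOTL2, TEAD1, AJUBA and CCN1 were lower with ATPase-competent SMARCA4. Of all genes 28.3% were called, 16.1% lower. The sizes ran from -0.29 for CCN1 to -0.63 for PTPN14 and LATS2, and the calls for CCN1 and AJUBA were lost without the BRD pair (adjusted p = 0.104 and 0.0583), that for CCN1 also without the GFP pair (0.0776). Under shLuc alone, PTPN14 spanned 8.23 to 8.27 over the 4 cDNAs, TEAD1 10.60 to 10.69, AJUBA 10.00 to 10.13, LATS2 8.44 to 8.59 and AMOTL2 9.00 to 9.16. CCN1, at 10.33 to 10.62, and CCN2, at 9.83 to 10.26, spread more widely. The shLuc arrays with WT and BRD both lay above those with GFP and ATPdead for CCN1 (10.60 and 10.62 against 10.53 and 10.33). They lay below them for TEAD1 (10.62 and 10.60 against 10.69 and 10.64) and LATS2 (8.53 and 8.44 against 8.54 and 8.59). For CCN2, AMOTL2, AJUBA and PTPN14 the order was mixed, so the averaged fall does not describe the shLuc arrays of every gene. A SMARCA4 probe set that read the cDNAs was at log2 4.56 with shLuc and GFP and at 6.64 to 6.91 with the 3 SMARCA4 forms. With S2sh7 it was at 4.97 with GFP, 7.88 with WT, 7.91 with BRD and 7.24 with ATPdead, so the ATPdead RNA was lower than that of the competent forms, and the part of that in these results was not tested.

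The lines were compared in their GFP controls, where neither carried an added SWI/SNF cDNA, in a joint fit made after the data had been seen. S2sh7 minus shLuc was called higher in A549 than in H1299 for 8 of 9 genes, with 47.4% of all genes called, 26.4% higher and 21.1% lower. LATS2 gave 1.62 in A549 and -0.17 in H1299, a difference of 1.79. AXL gave 0.70 and -0.67, PTPN14 1.40 and -0.06, AMOTL2 0.72 and -0.44, AJUBA 0.24 and -0.78, CCN1 0.74 and -0.24, and TEAD1 0.55 and -0.12. For these 7 genes the values in the lines had opposite signs, although PTPN14 was not called in H1299. CCN2 was higher with the hairpin in both, 1.09 in A549 and 0.23 in H1299 (difference 0.86). FSTL1 was lower in both, -0.77 and -0.89, and the difference between the lines, 0.12, was not called. The lone A549 arrays are assumed in this fit to vary like the H1299 groups, so its error comes from H1299 alone. The median residual SD was larger in the additive A549 fit (0.108) than in H1299 (0.0703), and the p-values of this comparison are therefore not given.

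**Figure D3:**
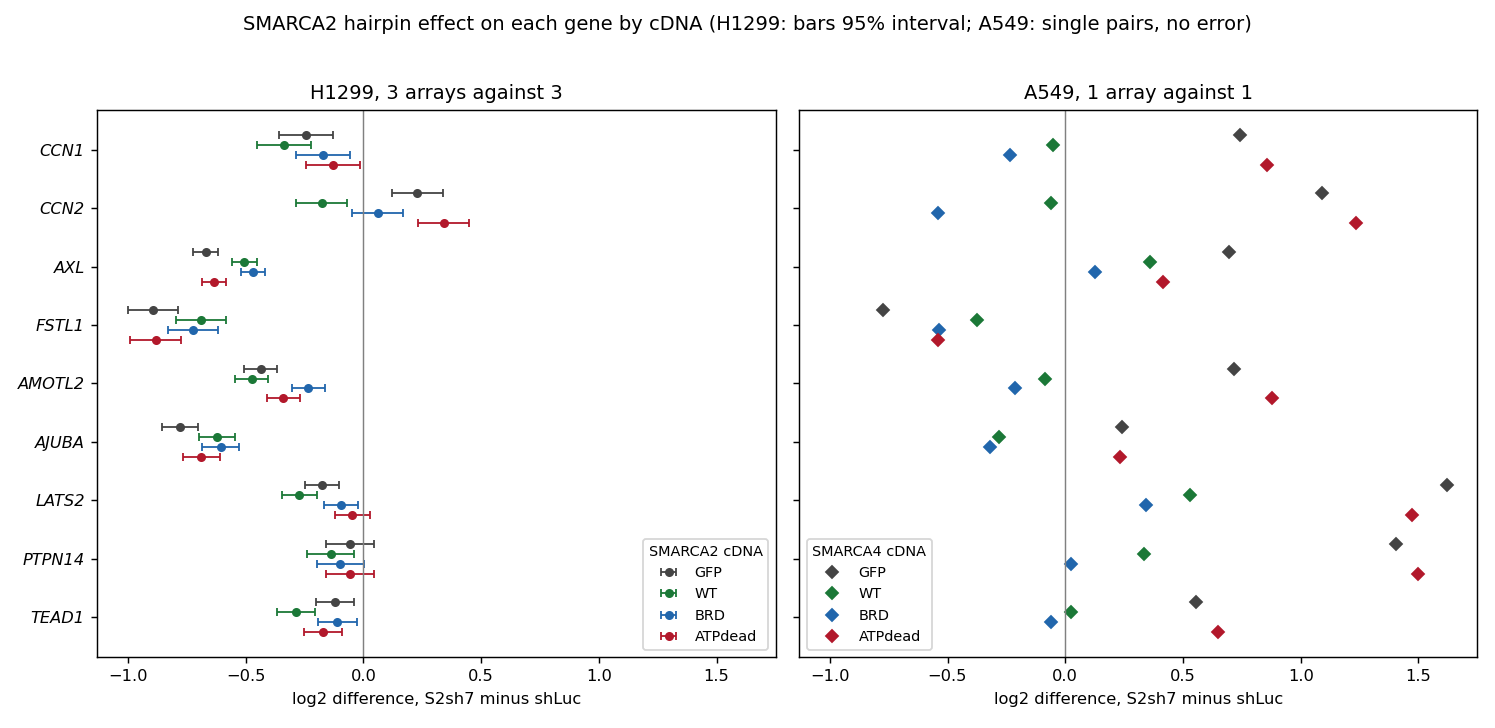
Log2 difference between S2sh7 and shLuc for the 9 tested genes by cDNA; in H1299 (left) points and bars are estimates and 95% intervals from 3 arrays against 3, and in A549 (right) each diamond is a single pair with no error. FSTL1 is left of 0 in all 8 contrasts, AXL is left of 0 in H1299 and right of 0 in A549, and the A549 diamonds for GFP and ATPdead lie right of those for WT and BRD in CCN1, CCN2, AMOTL2, AJUBA, LATS2, PTPN14 and TEAD1.

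The upstream genes of the pathway were followed from lists drawn up by name. Among co-activators and TEAD partners, 3 of 8 rose and none fell in H1299 with GFP, where 13.6% of all genes rose and 16.1% fell: TEAD2 (0.37, adjusted p = 1.72e-05), YAP1 (0.20, adjusted p = 0.000661) and VGLL4, a competitor of YAP for TEADs (0.15, adjusted p = 0.0193). The list leaves out TEAD1, which belongs to the set of target genes and fell in this comparison (-0.12). YAP1 was at 10.62 with shLuc and 10.82 with S2sh7. WWTR1, which encodes TAZ, was at 10.41 and 10.33 and was not called (-0.07, adjusted p = 0.235), nor were TEAD3 (0.13) and TEAD4 (-0.06). YAP1 RNA was higher in a comparison where 7 of the 9 tested target genes were lower and CCN2 was higher. A link between YAP1 RNA and these genes was not tested. The list's median was 0.13.

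In A549 over the 4 cDNAs, where 12% of all genes rose and 9.06% fell, YAP1 (0.79, adjusted p = 0.0246) and TEAD4 (0.65, adjusted p = 0.0228) rose and WWTR1 (-0.34, adjusted p = 0.0304), TEAD3 (-0.31, adjusted p = 0.0317) and VGLL3 (-1.35, adjusted p = 0.00902) fell. YAP1 went from 9.80 to 10.99 with GFP and 9.93 to 10.89 with ATPdead SMARCA4, against 9.93 to 10.44 with WT and 9.97 to 10.50 with BRD. Its change of effect with ATPase-competent SMARCA4 was called (-0.56, adjusted p = 0.00557), as was that of TEAD4 (-0.42, adjusted p = 0.0295) and, in the higher direction, of TEAD2 (0.38, adjusted p = 0.0275). WWTR1 did not show one (0.07, adjusted p = 0.737). It was lower with S2sh7 in all 4 pairs, from 11.87 to 11.35 with GFP and by 0.23 to 0.34 in the others.

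The list of other YAP and TAZ targets, 18 genes outside the set of 10, had 9 lower and 2 higher in H1299 with GFP (16.1% and 13.6% of all genes), with a median of -0.13. GADD45A, a stress-induced growth arrest gene, fell by 1.34 (adjusted p = 3.24e-16), THBS1, the matrix protein thrombospondin, by 0.89 (adjusted p = 1.8e-08) and IGFBP3, a binding protein of insulin-like growth factors, by 0.78 (adjusted p = 1.68e-07). MYOF (0.17) and FJX1 (0.20) rose. In A549 GADD45A went the other way, from 9.16 to 11.32 with GFP and from 9.21 to 11.18 with ATPdead SMARCA4, but from 9.13 to 9.94 and 9.09 to 9.71 with WT and BRD (change of the effect -1.34, adjusted p = 0.000338). The change of the effect was called for 11 of the 18, 9 lower and 2 higher, with a median of -0.38, beside 23.9% of all genes, 11.9% lower and 12% higher. IGFBP3 fell in A549 too (-1.40, adjusted p = 0.0106), as did CCDC80 (-1.66, adjusted p = 0.0162), while THBS1 gave 0.005 (adjusted p = 0.971).

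Of 10 Hippo kinases and their cofactors, 3 rose and 3 fell in H1299 with GFP (13.6% and 16.1% of all genes), all by small amounts: LATS1 (0.20), TAOK1 (0.12) and TAOK3 (0.12) were higher, and MAP4K4 (-0.19), SAV1 (-0.20) and MOB1A (-0.11) lower. The list's median was 0.02. In A549 4 rose and 1 fell (12% and 9.06% of all genes), among them MAP4K4 (0.62), LATS1 (0.47) and MOB1A (-0.68). SAV1, the scaffold of the MST kinases, read higher with S2sh7 by 0.98 with GFP and 0.79 with ATPdead SMARCA4, and by 0.16 and 0.07 with WT and BRD (change of the effect -0.77, adjusted p = 0.00141). Of these genes, 5 had a lower effect with ATPase-competent SMARCA4 and none a higher one (11.9% and 12% of all genes).

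Among 11 regulators above the kinases, 3 fell and 2 rose in H1299 with GFP, beside 16.1% and 13.6% of all genes. NF2, which encodes merlin, fell by 0.54 (adjusted p = 2.84e-08), WWC1 (KIBRA) by 0.39 and its relative WWC3 by 0.36, while the atypical cadherin FAT4 rose by 0.88 (adjusted p = 7.43e-07) and WTIP by 0.24. FAT4 was at log2 5.18 with shLuc and 6.06 with S2sh7, near the filter. In A549 FAT4 went from 4.26 to 8.23 with GFP and from 4.32 to 8.24 with ATPdead SMARCA4, against 4.46 to 5.85 and 4.39 to 5.55 with WT and BRD, with all shLuc readings under log2 5 (change of the effect -2.67, adjusted p = 3.34e-05). NF2 moved from 8.50 to 8.73 and 8.44 to 8.59 with GFP and ATPdead and from 8.55 to 8.11 and 8.55 to 7.98 with WT and BRD (-0.70, adjusted p = 0.00263). In all, 5 of the 11 had a lower effect with ATPase-competent SMARCA4 and none a higher one, beside 11.9% and 12% of all genes.

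Genes of 2 pathways that meet YAP at shared promoters were counted as well. Of 10 SRF and MRTF targets, 5 fell and none rose in H1299 with GFP (16.1% and 13.6% of all genes), among them the actin-binding genes ACTN1 (-0.29) and CNN2 (-0.30) and the LIM-domain gene FHL2 (-0.28). In A549 only TAGLN of this list was called over the 4 cDNAs (-0.35), beside 21.1% of all genes. Of 10 genes of the TGF-beta pathway, 6 fell and none rose in H1299 with GFP (16.1% and 13.6% of all genes): TGFBI, a matrix protein, by 1.36 (adjusted p = 2.62e-16), SMAD7, the inhibitory Smad, by 0.86 and LTBP2, a matrix protein related to the latent TGF-beta binding proteins, by 0.55. In A549 5 fell, beside 9.06% of all genes, TGFBR1 (-1.04) and SMAD7 (-0.78) with the smallest adjusted p among them, and SMURF1 rose (0.57). TGFBI went from 12.94 to 10.63 with GFP and from 12.81 to 10.67 with ATPdead SMARCA4 but from 12.77 to 12.16 and 12.82 to 11.82 with WT and BRD, so that its change of effect was positive (1.42, adjusted p = 0.000644), the opposite sign to that of CCN2. For the TGF-beta list 4 genes had a higher and 2 a lower effect with ATPase-competent SMARCA4 (12% and 11.9% of all genes), with a median of 0.17.

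**Figure D4:**
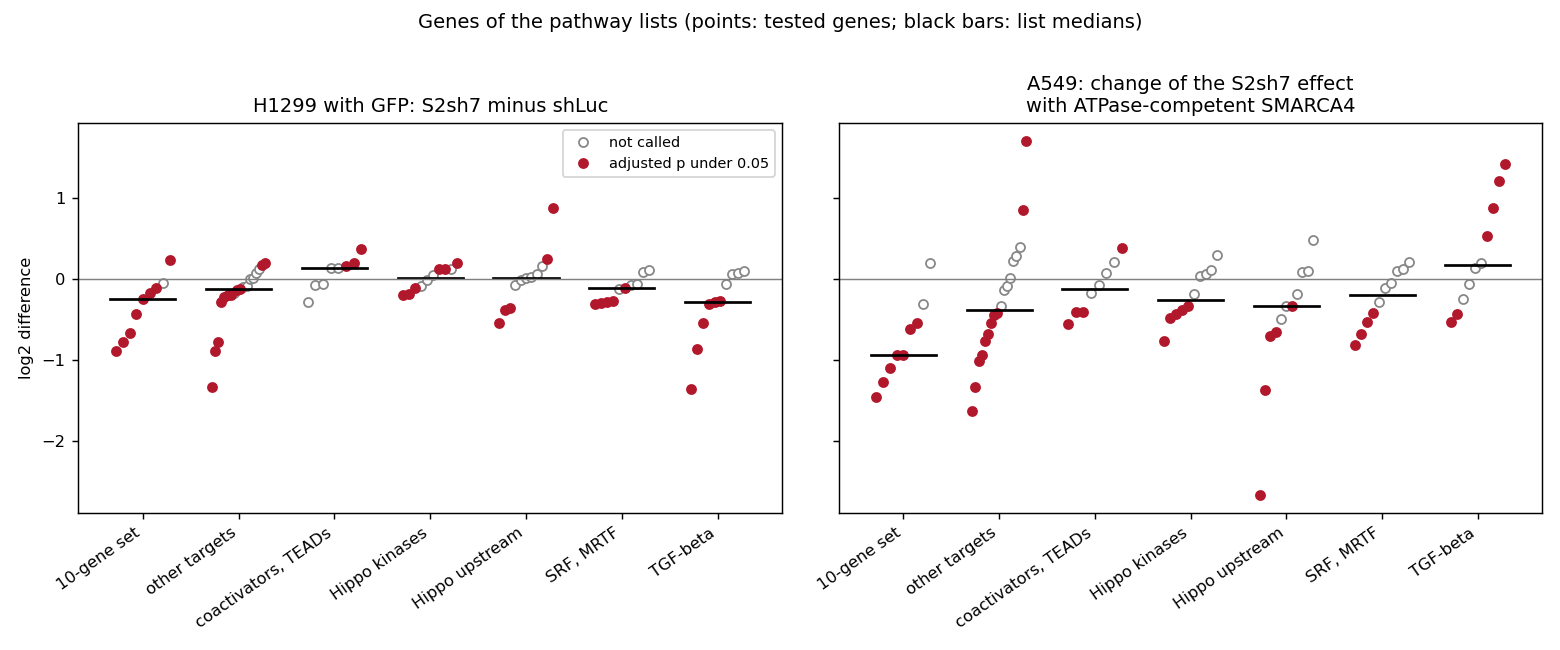
Log2 difference of each tested gene in the 10-gene set (9 tested) and in 6 pathway lists; the left panel is S2sh7 minus shLuc in H1299 with GFP, the right panel is the change of that effect in A549 with ATPase-competent SMARCA4, filled points have an adjusted p under 0.05 and black bars are list medians. The medians of the 10-gene set are -0.24 on the left and -0.94 on the right, and the TGF-beta list has a median of -0.28 on the left and 0.17 on the right.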

How the data were processed

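Affymetrix HG-U133 Plus 2.0 arrays were used, 24 of H1299 (8 groups of 3) and 8 of A549 (8 groups of 1). The deposited values are linear intensities; the submitters' processing notes name RMA and limma, whose versions are not given in the sources used here. They were taken to log2 with no pseudocount. Of 54675 probe sets, 41097 carried 1 gene symbol, 1801 several and 11777 none; the brightest probe set over all arrays stood for each of 19775 genes, and the 14695 that exceeded log2 5 on 3 or more arrays were tested. limma 3.58.1 in R 4.3.3 was fitted to H1299 (a mean per group, 16 residual degrees of freedom) and to A549 (hairpin and cDNA as additive terms, 3 residual degrees of freedom; hairpin by ATPase-competent SMARCA4, 4). Benjamini-Hochberg adjustment ran over all tested genes and a call is an adjusted p under 0.05. Single probe sets were tested in a fit of all probe sets. The fits were run on simulated data with independent normal errors. Such data cannot test whether A549 lines pooled as a class vary like replicates. The number of arrays limits the precision.

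The members and lists were chosen with earlier results of these data known. Genes named are the 10 members, SMARCA2, YAP1, WWTR1 and the TEADs, per list up to 3 called genes in each direction with the smallest adjusted p in H1299 with GFP and up to 2 in A549, and the 5 genes most and 3 least like the members' mean profile; these may be followed in other comparisons. Alternatives were other probe set choices, filters, normalizations, variance models, array weights, a replicate block and leaving out each array. The A549 fits by class and the joint fit of both lines were added after seeing the data. Figures were drawn with matplotlib 3.10.9.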

Additional observations from a re-analysis of the deposited data

Results flagged for a closer look

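The effect of the SMARCA2 hairpin differed between lines carrying different cDNAs, by a limma test of the difference itself, for several of the genes. In H1299, the effect with WT SMARCA2 minus that with GFP was 0.17 for AXL and -0.41 for CCN2, and the effect with BRD SMARCA2 minus that with GFP was 0.20 for AXL. Both AXL calls were lost when arrays were centred on their medians and at the second AXL probe set.

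In A549, the effect with WT and BRD SMARCA4 minus that with GFP and ATPdead SMARCA4 was -1.46 for CCN2, -1.27 for PTPN14, -1.11 for LATS2, -0.95 for AMOTL2, -0.94 for CCN1, -0.62 for TEAD1 and -0.54 for AJUBA. Each class is 2 lines with 1 array per hairpin.

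Between the cell lines, the hairpin effect with GFP in A549 minus that in H1299 was 1.79 for LATS2, 1.46 for PTPN14, 1.37 for AXL, 1.15 for AMOTL2, 1.02 for AJUBA, 0.99 for CCN1, 0.86 for CCN2 and 0.67 for TEAD1. Line and batch cannot be told apart here, and the A549 side is a single pair of arrays, so the error of these differences comes from the H1299 replicates alone.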

How the results depend on the processing

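Over 3046 single-gene settings, 2858 kept their side of the threshold, 139 lost a call, 48 gained one and 1 reversed. The reversed one was AJUBA with WT SMARCA2 against GFP under shLuc, which gave -0.028 at its dimmest tested probe set. Direction was compared only where the main fit or the other setting gave a call. Differences uncalled in both could change sign, as the LATS2 hairpin effect with ATPdead SMARCA2 did (-0.15 to 0.10). Counts of the 9 genes called moved by over 1.5 times as follows. In A549 over 4 cDNAs, 3 calls became 8 in the 2 by 2 fit and 0 to 3 with a pair left out. With only the arrays compared, the count was 0 for ATPdead against WT under S2sh7, 2 for BRD against GFP under S2sh7, 1 for WT and 0 for BRD against GFP under shLuc, 1 for the WT and 0 for the BRD interaction; here fewer arrays estimate the spread. A trended robust fit gave 1 for ATPdead against GFP under S2sh7, 1 under shLuc, 4 for the WT and 3 for the BRD interaction. A filter at log2 6 gave 1 for ATPdead against GFP under S2sh7 and 2 for the BRD interaction, and array weights gave 2 for that interaction and 1 for ATPdead against GFP under shLuc. Centring arrays gave 0 for the BRD interaction and 1 for BRD against GFP under shLuc, as did the mean of all probe sets for the latter. With 1 array left out, counts ran from 1 to 2 for the BRD interaction, 1 to 2 for BRD and 2 to 6 for WT against GFP under shLuc. The cause was not tested in the other cases.

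With the replicate number as a block, 15 of 15 H1299 counts stayed within 1.5 times, 8 of the 9 genes being called with GFP. Deviations of same-numbered arrays had a mean correlation of -0.005 (-0.285 to 0.281 over 84 pairs), and 9 of 24 arrays correlated best with their own number. No pairing by number was seen over the groups as a whole. Shared handling within some groups was not tested. Dim signal limits ANKRD1, and A549 has no replicates.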
